A study of Sus scrofa with 12 samples.

Results

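The Z-disc is the boundary between neighbouring sarcomeres of a muscle fiber, where actin filaments of opposite polarity are anchored and joined to titin. The α-actinins ACTN2 and ACTN3 cross-link these filaments, and the myozenins, the PDZ-LIM proteins LDB3 and PDLIM3 and myotilin bind α-actinin. TCAP caps the end of titin in the Z-disc, and CSRP3 is a LIM protein that binds α-actinin and takes part in mechanical signalling. ACTN3, MYOZ1 and MYOZ3 are known from fast fibers, MYOZ2 and CSRP3 mostly from slow fibers and the heart. The chromatin accessibility of these 10 genes was compared between Luchuan, a fat pig breed, and Duroc, a lean breed, in a study that sought the regulators of muscle growth.

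The 10 genes are ACTN2, ACTN3, MYOZ1, MYOZ2, MYOZ3, LDB3, MYOT, TCAP, CSRP3 and PDLIM3. An open region was assigned to a gene when its midpoint lay in the gene body in Sscrofa11.1 or within 10 kb of it. This gave 275 of the 217213 deposited peak intervals, and they merged into 164 of 140081 regions, of which 110 lay in gene bodies and 54 in flanks. ATAC-seq, in which a transposase cuts accessible DNA, was performed on the longissimus dorsi of 3 Luchuan and 3 Duroc boars. All were 180 days old, without genetic modification or treatment named in the labels, kept under the same feeding conditions and fasted overnight before death. The deposited table has 1 read count per interval for each breed and none for a single boar, so every value below is that of 1 pool per breed, no spread between boars could be estimated and no test between breeds was made. In bulk tissue, fewer cells of a type and less open chromatin per cell cannot be told apart.

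The 140081 regions held 13746020 Luchuan and 20759894 Duroc reads. A log2 ratio here is the log2 of Luchuan over Duroc reads, with 1 added to each count, after the Luchuan reads were multiplied by 1.48 so that the median of all regions was 0. The 95% Clopper-Pearson interval beside it covers counting error alone. Reads were densest at muscle fiber genes. The 8 marker genes of muscle fibers, such as ACTA1 and CKM, held 61.3 to 197 Duroc and 54.2 to 191 scaled Luchuan reads per kb of gene and flanks. The 4 endothelial markers held 0.746 to 8.53 and 0.748 to 6.77, the 4 fibroblast markers 0 to 11.5 and 0 to 10.7, with LUM at 0 in both. Immune markers ran from 0.380 to 29.8 in Duroc and from 0.30 to 28.1 in Luchuan, and adipocyte markers from 3.55 to 56.1 and from 4.31 to 61.7. Summed over each list, the log2 ratio of Luchuan to Duroc was -0.23 for endothelial, -0.04 for immune, 0.04 for adipocyte and -0.03 for fibroblast markers. Single markers of these lists went both ways, such as KDR at 0.74 and TIE1 at -0.70, or CIDEC at 0.14 and LEP at -0.92. The summed ratio of the 8 muscle fiber markers was -0.10. Of these 8 genes, 7 were below 0, with a median of -0.24, from -0.46 for CKM to 0.04 for TTN. The part of fiber content and of these other cells in the differences of the Z-disc genes was not tested. Of 4 hepatocyte markers, CYP2E1 and TAT had no region, ALB had 0.554 Duroc and 1.31 scaled Luchuan reads per kb, and APOA2 had 25.7 and 28.7 from a single region. The 3 neuronal markers found in the annotation did not exceed 3.86 reads per kb in either breed.

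Most of the Z-disc genes lay in densely open chromatin. Duroc reads in regions, divided by the length of gene and flanks in kb, were 230 for ACTN3, which exceeded 99.96% of the 16986 protein-coding genes with a region. They were 158 for MYOZ1, 150 for PDLIM3, 138 for LDB3 and 136 for TCAP. MYOZ3 with 127, MYOT with 125 and ACTN2 with 71.7 reads per kb followed. The exceptions were the genes known from slow fibers, CSRP3 with 22.1 and MYOZ2 with 6.90, of which MYOZ2 was below the median gene at 18.2. These sums include regions in the bodies of other genes. Such regions were 4 of 11 for ACTN3, 6 of 12 for MYOZ1, 4 of 12 for MYOZ3 and 3 of 4 for TCAP. They were 3 of 32 for LDB3, 1 of 14 for MYOT and all regions of PDLIM3 and MYOZ2. A single region in CTSF held 43.9% of the reads of ACTN3 over both breeds. The scaled Luchuan values gave nearly the same order, from 189 reads per kb for ACTN3 to 6.80 for MYOZ2, with LDB3 (111) and MYOZ3 (95.1) below TCAP (124) and MYOT (116). PDLIM3 had 5.55 regions per 10 kb, the most of the 10 genes, and MYOZ2 had 1.39, the fewest. The median gene had 0.985 regions per 10 kb.

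**Figure D1:**
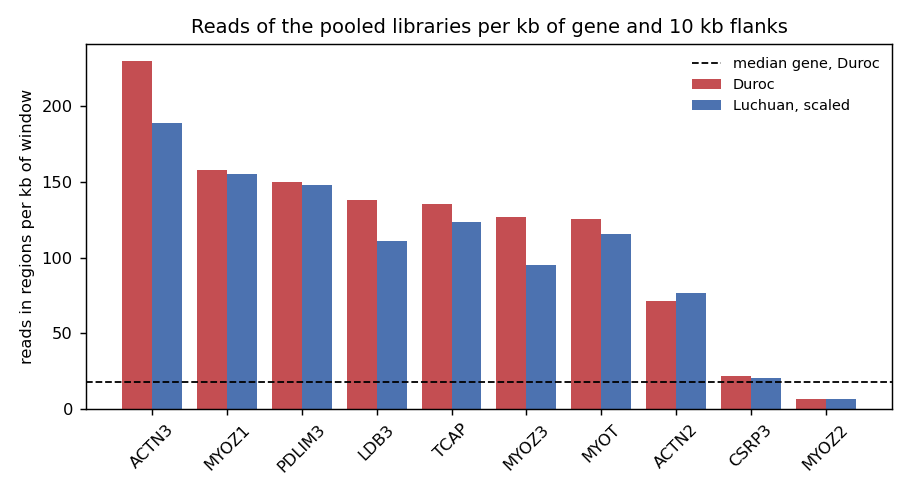
Reads in open regions per kb of gene body and 10 kb flanks (y axis) for the 10 Z-disc genes, as bars for the Duroc pool and the scaled Luchuan pool, with the median of all genes with a region in Duroc as a dashed line at 18.2. ACTN3 is the highest at 230 in Duroc, and MYOZ2 at 6.90 lies under the line. Regions in the bodies of other genes are counted, 4 of the 11 of ACTN3 among them.

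MYOZ3, LDB3 and ACTN3 had the lowest ratios of Luchuan to Duroc and ACTN2 had the highest. Summed over the regions of a gene, the log2 ratio was -0.41 for MYOZ3, -0.32 for LDB3 and -0.28 for ACTN3. The next gene in order was TCAP with -0.13, and its interval did not overlap that of ACTN3. MYOT and CSRP3 had -0.11 each, MYOZ1 -0.03, PDLIM3 -0.02 and MYOZ2 -0.02, and the intervals of neighbours in this order overlapped. ACTN2 was above 0, at 0.10. The median of the 10 genes was -0.11, beside -0.01 for the 13836 genes with at least 500 reads, whose interquartile range was -0.14 to 0.12. Below 0 were 9 of the 10 genes and 52.3% of all genes.

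Only MYOZ3 passed a limit set at a log2 ratio of 0.32, here in the direction of Duroc, and LDB3 lay just short of it. Which of them passed depended on the setting. In the gene body alone LDB3 was at -0.35 and MYOZ3 at -0.29. Without the region with the most reads of each gene, LDB3 was at -0.34 and MYOZ3 at -0.28. Among all genes 7.41% passed this limit in the direction of Duroc and 4.71% in that of Luchuan, which none of the 10 genes did. No test stands behind these counts, and 1 of 10 genes is close to the share of all genes. A lower ratio than that of MYOZ3 was found in 4.21% of genes, than that of LDB3 in 7.52%, than that of ACTN3 in 9.71% and than that of ACTN2 in 72.8%. The sign depended on the scaling for ACTN2, MYOZ2 and PDLIM3, and not for the other genes. Scaled by the total reads in regions, MYOZ2 turned to 0.006 and PDLIM3 to 0.003. When the pools were scaled by the clean reads of their libraries, the median of all regions moved to -0.20, ACTN2 turned to -0.10, and 28.1% of genes and 4 of the 10 passed the limit in the direction of Duroc.

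**Figure D2:**
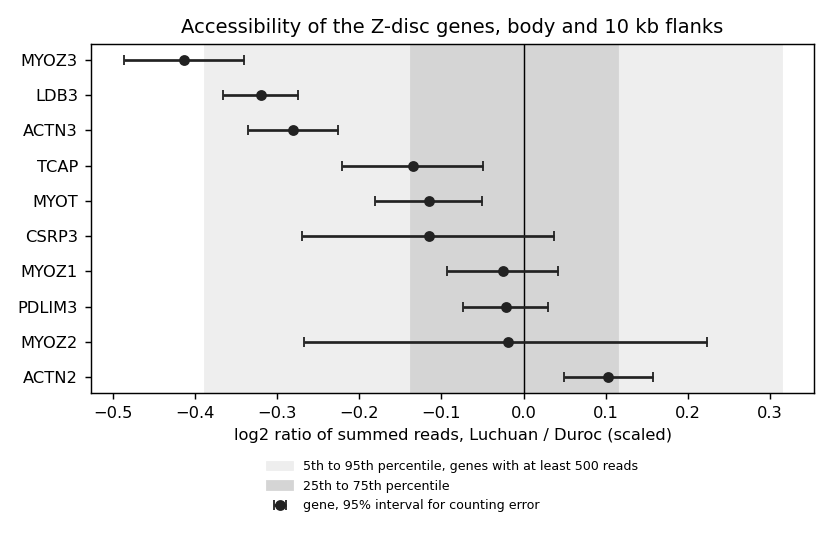
Log2 ratio of Luchuan to Duroc reads summed over the regions of each of the 10 genes (x axis), with 95% intervals for counting error. The grey bands are the middle parts of the distribution over genes with at least 500 reads, and MYOZ3 at -0.41 lies outside the wider band.

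With the median of all regions set to 0, the 2 muscle α-actinins differed in direction. Scaled by clean reads, both were below 0, ACTN2 at -0.10 and ACTN3 at -0.48. ACTN2, the α-actinin of all fiber types, lies on chromosome 14 from 54670727 to 54742717. Its 36 regions held 4768 reads in Luchuan and 6592 in Duroc, and the log2 ratio was 0.10 (interval 0.05 to 0.16). ACTN3, the α-actinin of fast fibers, lies on chromosome 2 from 5860386 to 5873779. Over 11 regions it held 4250 reads in Luchuan and 7665 in Duroc, and a log2 ratio of -0.28 (-0.33 to -0.23). The difference between 2 genes of the same libraries is the same under any single scaling factor, though not under scaling by signal, and for ACTN3 minus ACTN2 it was -0.38 (95% Wald interval of the log odds ratio, counting error alone, -0.46 to -0.31). In all, 5 pairs within families were compared, and they were chosen after their values had been seen.

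Along ACTN2, 23 of 36 regions were above 0, and 4 of them had an interval that lay above 0, beside 13.8% of all regions. The strongest region spans the gene end with the higher coordinate, from 54742094 to 54743192, with 722 reads in Luchuan and 994 in Duroc and a log2 ratio of 0.11 (-0.03 to 0.25). Inside the gene, the region from 54693299 to 54693792 had 230 reads in Luchuan and 262 in Duroc and a ratio of 0.38 (0.12 to 0.64). The highest ratio, 0.67 (0.12 to 1.22), came from only 61 reads in Luchuan and 57 in Duroc between 54679690 and 54679854. In the flank beside the lower coordinate the region from 54665818 to 54666031 went the other way, with 45 reads in Luchuan and 101 in Duroc and -0.58 (-1.14 to -0.08). Body and flanks of ACTN2 thus stood apart, at 0.14 and -0.17.

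All 11 regions of ACTN3 were below 0, but not all of them lay clear of neighbouring genes. ACTN3 lies 128 bases from CTSF and 730 bases from ZDHHC24, and 4 of its regions lay in the bodies of these genes. The strongest region of all 164, 2753 bases from 5856968 to 5859720, lies in CTSF and held 1890 reads in Luchuan and 3336 in Duroc, which is 43.9% of the reads of ACTN3. Its log2 ratio was -0.25 (-0.33 to -0.17). The lowest ratio, -1.15 (-1.42 to -0.91), belonged to the region from 5880932 to 5881814 in ZDHHC24, with 169 reads in Luchuan and 561 in Duroc. Within ACTN3, the region from 5864303 to 5864961 had 309 reads in Luchuan and 614 in Duroc and -0.42 (-0.62 to -0.22), while the one at the end with the higher coordinate, from 5873523 to 5873981, had 317 and 501 and a ratio of -0.09 (-0.30 to 0.12). Without the regions in other genes the ratio of ACTN3 was -0.22, and within 2 kb of the gene it was -0.16.

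The myozenins bind α-actinin, filamin, TCAP and the phosphatase calcineurin, and MYOZ3 had a lower ratio between breeds than MYOZ1 and MYOZ2. MYOZ3, on chromosome 2 from 151635159 to 151650845, had 2285 reads in Luchuan and 4519 in Duroc over 12 regions, and its log2 ratio was -0.41 (-0.49 to -0.34). MYOZ1, on chromosome 14 from 76445109 to 76453014, had 2918 and 4410 reads over 12 regions and a ratio of -0.03 (-0.09 to 0.04). MYOZ3 minus MYOZ1 was -0.39 (Wald interval -0.49 to -0.29), although both are known from fast fibers. MYOZ2, on chromosome 8 from 104578942 to 104609367, had only 231 reads in Luchuan and 348 in Duroc over 7 regions, and its ratio of -0.02 had the wide interval of -0.27 to 0.22. MYOZ2 minus MYOZ1 was 0.00 (-0.24 to 0.25) and MYOZ3 minus MYOZ2 -0.39 (-0.64 to -0.14).

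All 12 regions of MYOZ3 were below 0, from -0.85 to -0.07, and 7 had an interval that lay below 0, beside 15.2% of all regions. Called as peaks in Duroc alone, from the same reads, were 4 of the 12, and 2 in Luchuan alone. Of the 12, 4 lay in the body of the neighbouring gene SYNPO, and without them the ratio of MYOZ3 was -0.50. The strongest region was also the lowest in ratio. It spans the gene end with the higher coordinate, from 151650583 to 151652328, and had 456 reads in Luchuan and 1226 in Duroc and a log2 ratio of -0.85 (-1.01 to -0.70). Without it, the ratio of MYOZ3 was -0.28. At its opposite end MYOZ3 differed less. The region from 151635250 to 151635493 had 149 reads in Luchuan and 241 in Duroc and a ratio of -0.12 (-0.43 to 0.18), and the neighbouring region from 151635665 to 151636446 had 506 and 875 and -0.22 (-0.38 to -0.06).

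The regions of MYOZ1 varied little, from -0.29 to 0.06, and the interval of each of the 12 included 0. The strongest, at the end with the higher coordinate from 76452547 to 76453243, had 474 reads in Luchuan and 734 in Duroc and a log2 ratio of -0.06 (-0.23 to 0.11). SYNPO2L, another Z-disc gene, begins 3.16 kb beyond that end, and the 5 regions of MYOZ1 that lie in it were between -0.05 and 0.02. MYOZ2 lies within the annotated body of SEC24D, so none of its regions belongs to it alone. Its strongest region, from 104609062 to 104609520 at the end with the higher coordinate, had 81 reads in Luchuan and 141 in Duroc (-0.22, interval -0.64 to 0.17). The region nearest to its other end, from 104577994 to 104578242, had 23 and 46 reads and -0.40 (-1.22 to 0.32). At this depth, the counts of MYOZ2 allowed a ratio from -0.27 to 0.22, and a smaller difference was not detectable.

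LDB3, also known as ZASP or Cypher, had the most reads of the 10 genes and 20 of the 37 regions with an interval below 0. It lies on chromosome 14 from 87660961 to 87722249, and its 32 regions held 6060 reads in Luchuan and 11232 in Duroc, with a log2 ratio of -0.32 (-0.37 to -0.27). Below 0 were 31 of the 32 regions, and 20 had an interval that lay below 0, beside 15.2% of all regions. The 2 shares are not alike in kind. Of the 32, 15 were called as peaks in Duroc alone, from the same reads. Deeper regions also have narrower intervals, and the median over both breeds was 302.5 reads in the 164 regions and 99 in all regions. In the body of OPN4 lay 3 of the 32, and without them the ratio of LDB3 was -0.33. PDLIM3, the actinin-associated LIM protein, is its relative on chromosome 15 from 46516178 to 46546658, with 5030 reads in Luchuan and 7583 in Duroc over 28 regions and a ratio of -0.02 (-0.07 to 0.03). LDB3 minus PDLIM3 was -0.30 (Wald interval -0.37 to -0.23).

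The ratios of LDB3 were nearest to 0 around its lower end. The region across the lower end, from 87660501 to 87661170, had 580 reads in Luchuan and 792 in Duroc and the only log2 ratio above 0, 0.12 (-0.04 to 0.28). Inside this end, the region from 87661597 to 87661936 had 202 reads in Luchuan and 370 in Duroc and a ratio of -0.30 (-0.56 to -0.05). The strongest region, from 87700297 to 87701349 inside the gene, had 687 and 1136 reads and a ratio of -0.15 (-0.29 to -0.02). Divided into segments after the values had been seen, the 10 regions up to 10 kb inside the lower end gave -0.11 (-0.18 to -0.04) and the 13 regions from there to 35 kb gave -0.50 (-0.58 to -0.42). The 2 regions between 35 and 50 kb gave -0.20 (-0.30 to -0.10), and the last 7 regions, flank included, gave -0.80 (-0.95 to -0.66). The differences did not form a steady gradient along the gene. Called as peaks in Duroc alone were 2 of the 10, 8 of the 13, 0 of the 2 and 5 of the 7. Regions called in both breeds ranged from -0.32 to 0.12 in the first segment and from -0.57 to -0.15 in the next. In the last segment, those called in both breeds were at -0.09 and -0.30. The part of peak calling in the differences between segments was not tested.

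Beyond the end of LDB3 with the higher coordinate lay the lowest ratio of all 164 regions. It was the region from 87725671 to 87725968, 3.57 kb outside the gene, with 24 reads in Luchuan and 129 in Duroc and a log2 ratio of -1.81 (-2.55 to -1.22). The region from 87723200 to 87723676, at 1.19 kb, had 79 and 256 reads and -1.11 (-1.51 to -0.76). Inside the gene, 146 reads in Luchuan and 452 in Duroc between 87716375 and 87717201 gave -1.05 (-1.34 to -0.79), and 53 and 177 between 87673660 and 87673888 gave -1.15 (-1.64 to -0.72). These regions were called as peaks in Duroc alone, as were 15 of the 32 regions of LDB3, and none was called in Luchuan alone. The 15 regions had a ratio of -0.73 together and the 17 called in both breeds -0.19. Calling used the same reads, and the median region called in Duroc alone was at -0.36 over the whole genome, while the median of the 15 was -0.84.

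**Figure D3:**
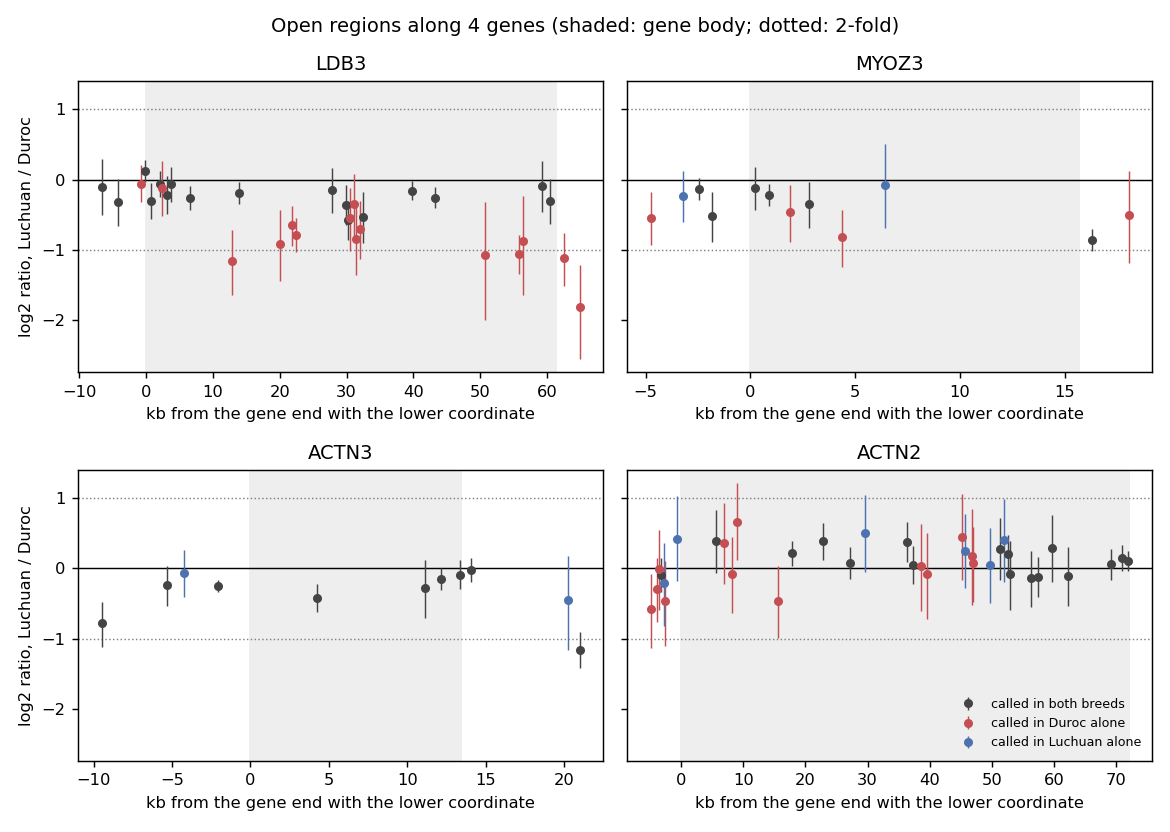
Log2 ratio of Luchuan to Duroc reads (y axis) of the open regions of LDB3, MYOZ3, ACTN3 and ACTN2 against their distance in kb from the gene end with the lower coordinate (x axis), with 95% intervals for counting error and colors for the breed in which the peak was called. In LDB3 the region at the lower end is at 0.12 and the outermost region beyond the other end at -1.81, and all regions of MYOZ3 and ACTN3 are below 0.

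In PDLIM3 the regions spread evenly around 0, with 12 above and 16 below it. The strongest region, which spans the end with the higher coordinate from 46545795 to 46546867, had 722 reads in Luchuan and 1033 in Duroc and a log2 ratio of 0.05 (-0.09 to 0.19). The region outside the other end, from 46515349 to 46516106, had 512 and 719 reads and 0.08 (-0.09 to 0.25). The lowest ratio, -0.68 (-1.23 to -0.19), came from 46 reads in Luchuan and 111 in Duroc between 46513861 and 46514010, and the highest, 0.31 (-0.16 to 0.77), from 74 and 89 reads between 46542956 and 46543138. All 28 regions also lie in the annotated body of C15H4orf47, which spans PDLIM3.

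MYOT, TCAP and CSRP3 had small ratios below 0. MYOT encodes myotilin, which binds α-actinin and filamin C, and lies on chromosome 2 from 139899245 to 139919095. Its 14 regions held 3109 reads in Luchuan and 5000 in Duroc, and the log2 ratio was -0.11 (-0.18 to -0.05). The strongest region, from 139919514 to 139921207, lies beyond the end of MYOT across the lower end of PKD2L2, with 1095 and 1682 reads and a ratio of -0.05 (-0.16 to 0.06). At the lower end of MYOT, the region from 139899067 to 139899686 had 327 and 552 reads and -0.18 (-0.39 to 0.01). Only the region from 139921787 to 139922019, in PKD2L2, had an interval clear of 0, with 67 and 175 reads and -0.80 (-1.24 to -0.40).

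TCAP, which encodes telethonin, is a gene of 1.24 kb on chromosome 12 from 22651666 to 22652904, between PNMT and STARD3. No midpoint lay in its body, and its 4 regions held 1767 reads in Luchuan and 2881 in Duroc, a log2 ratio of -0.13 (-0.22 to -0.05). Of the 4 regions, 3 had their midpoint in PGAP3 or PNMT. The region from 22652370 to 22653616 begins in the gene and crosses its end with the higher coordinate, with 695 and 1218 reads and a ratio of -0.24 (-0.38 to -0.10). The region at the other end, from 22650555 to 22651646, lies mostly in PNMT and had 733 and 1156 reads and -0.09 (-0.22 to 0.05). The interval of TCAP as a whole lay below 0, but its ratio over the 4 regions was within the interquartile range of all genes. Without the regions in other genes its ratio was -0.24, which is below that range.

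CSRP3, the muscle LIM protein, lies on chromosome 2 from 40219288 to 40240614. It had 567 reads in Luchuan and 912 in Duroc over 8 regions, and its log2 ratio of -0.11 had an interval of -0.27 to 0.04. The strongest region lies across the lower end, from 40219064 to 40219524, with 129 and 187 reads and a ratio of 0.04 (-0.30 to 0.37). The lowest ratio was in the flank beyond the other end, from 40247293 to 40247696, with 49 and 113 reads and -0.62 (-1.15 to -0.14). No protein-coding gene of the annotation other than CSRP3 reaches its window, so these regions are not shared with a neighbour.

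Over the 164 regions, ratios were lower in Luchuan more often than not, and large differences were few. The regions held 7 to 1890 Luchuan and 19 to 3336 Duroc reads, with medians of 110 and 188.5, against 38 and 61 over all regions. Below 0 were 115 of them, or 70.1%, beside 70017 of all 140081 regions, and the median log2 ratio was -0.10. LDB3, MYOZ3 and ACTN3 had 54 of 55 regions below 0. They were set apart for their low ratios in these same regions, so the split is a description only. In the other 7 genes 61 of 109 regions were below 0, or 56.0%, with a median of -0.03. An interval that lay below 0 was found for 37 regions, or 22.6%, and one above 0 for 4, or 2.44%, beside 15.2% and 13.8% of all regions. Deeper regions have narrower intervals. Of the 132 regions without LDB3, 17, or 12.9%, had an interval that lay below 0.

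All 164 regions had at least 20 reads. In the direction of Duroc 6 of them were 2-fold or more apart, which is 3.66% beside 5.22% of the 137696 such regions of the genome, and 5 of the 6 belonged to LDB3 and 1 to ACTN3. None was 2-fold or more higher in Luchuan, beside 6.71%. With at least 50 reads the shares of the genome were 5.11% and 2.50%. Of the regions of the genome that differed by this fold, 9242 were higher in Luchuan and 7186 in Duroc, which turned to 6050 and 11581 when scaled by clean reads, and to 6111 and 8727 with scaling in 20 bins of signal. Calls in both breeds made up 96 of the 164 regions, or 58.5%, against 49.1% over the genome, those in Duroc alone 50, or 30.5%, against 31.8%, and those in Luchuan alone 18, or 10.98%, against 19.1%. Among the 96 regions called in both breeds 70 were below 0, or 72.9%, beside 48.8% over the genome.

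**Figure D4:**
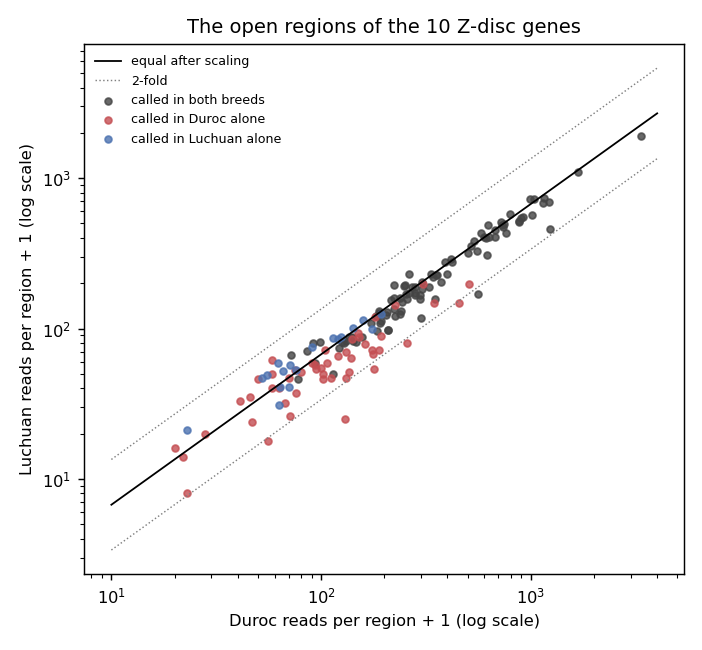
Luchuan against Duroc reads of the 164 regions, each with 1 read added (both axes logarithmic), with lines for equal reads after scaling and for 2-fold differences. Of the points, 6 lie at or below the lower 2-fold line, 5 of them called in Duroc alone, and none lies above the upper one.

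The limit of 10 kb chose members by position alone, and the ratios on its inner and outer side overlapped in range but differed within several genes. The outermost region inside it, at 2.81 to 9.45 kb from the gene, ranged from -0.80 to 0.10 over the 10 genes. The nearest region outside it, at 10.1 to 18.6 kb, ranged from -0.67 to 0.76. Closest on the inside was the region of ACTN3 at 9.45 kb, with 116 reads in Luchuan and 298 in Duroc and a log2 ratio of -0.78. Closest on the outside, 10.1 kb from LDB3, was a region with 24 and 38 reads and a ratio of -0.07. At MYOZ1 the ratio was 0.01 at 9.44 kb and -0.61 at 12.3 kb beyond the same end. At ACTN2 the 2 regions lay on opposite sides of the gene. The inner one, at 4.80 kb, was at -0.58. The outer one, at 10.6 kb, was at 0.76 from only 23 reads in Luchuan and 20 in Duroc.

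Other genes of the Z-disc and of fast and slow fibers were compared in the same way. Of 30 further Z-disc genes 29 were found in the annotation. A log2 ratio below 0 was found for 23 of them, beside 52.3% of all genes, and the median was -0.14. None passed the limit of 0.32 in the direction of Luchuan, beside 4.71% of all genes. In that of Duroc 5 passed it, beside 7.41%. These were PDLIM1 (-0.50), a PDZ-LIM protein, XIRP2 (-0.44), which binds actin, IGFN1 (-0.42), which binds the Z-disc protein KY, CSRP1 (-0.39), a relative of CSRP3, and PDLIM7 (-0.34). Among these genes the highest ratio was that of NEBL, nebulette, at 0.24, with 1219 reads in Luchuan and 1532 in Duroc. Filamin C (FLNC, -0.15), desmin (DES, -0.03) and the capping protein subunit CAPZB (-0.05) stayed short of the limit.

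Both fiber type lists were below 0 in all their genes, beside 52.3% of all genes. The 8 fast fiber genes had a median log2 ratio of -0.34, from -0.71 for PVALB to -0.09 for TNNC2, and 5 passed the limit in the direction of Duroc. The 8 slow fiber genes had a median of -0.30, from -1.07 for MYL2 to -0.02 for MYL3, and 4 passed it. Among all genes 7.41% passed it. MYL1 of the fast list and DES of the Z-disc list were also among the muscle fiber markers. Fast fiber genes held a median of 199 Duroc reads per kb of gene and flanks and slow fiber genes 56.3. The ratios of ACTN3 and MYOZ3 were within the range of the fast fiber genes, while that of MYOZ1 was above all 8 of them. All 3 were also within the range of the slow fiber genes. The part of fiber type in the ratios of the Z-disc genes was not tested.

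**Figure D5:**
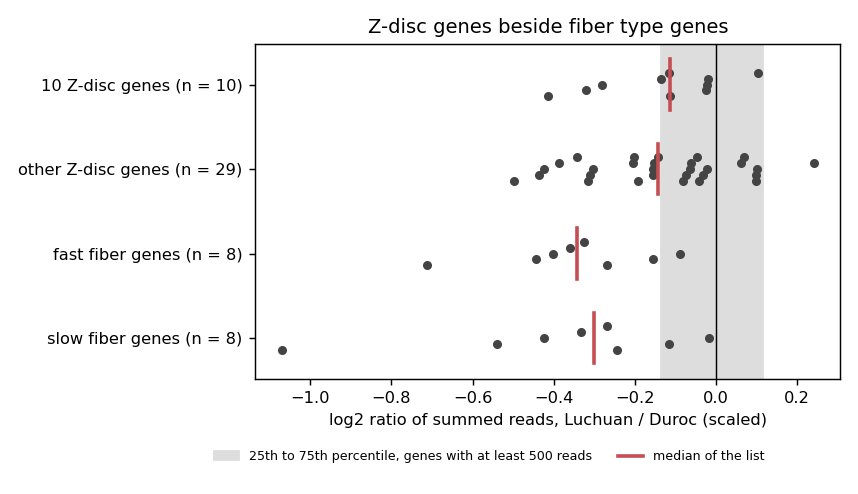
Log2 ratio of Luchuan to Duroc reads summed per gene (x axis) for the 10 Z-disc genes, 29 other Z-disc genes, 8 fast and 8 slow fiber genes, 1 point per gene, with the median of each list as a bar and the interquartile range of genes with at least 500 reads in grey. The medians are -0.11, -0.14, -0.34 and -0.30.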

How the data were processed

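Of the 12 libraries, the 6 of ATAC-seq were used, and the RNA-seq libraries were not used here. Before deposit the authors trimmed the reads (Trimmomatic 0.36), mapped them with Bowtie2 to Sscrofa11.1, which was assembled from a Duroc pig, and ran MACS2 for peaks. Duplicate removal, the transposase shift and the pooling step are not given in the sources used here. The authors deposited whole-number read counts, 1 column per breed, without scaling, beside columns of their own comparison (rescaled fold change, average signal and p-value), which were not used.

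Starts were read as counted from 0 and are printed counted from 1. Overlapping or adjoining intervals called in both breeds were merged and represented by the longest. Positions of 19550 protein-coding genes were those of RefSeq, without strand or exons, so transcription start sites, exons and introns were not separated. Without molecular identifiers, reads need not be separate molecules, and intervals cover counting error only. Counting was tested on simulated data.

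The genes and lists were chosen with earlier results of these data known. Named for each gene were the region with the most reads, those with the highest and lowest ratio among regions of at least 50 reads, and those nearest to each end. Other Z-disc genes were named when past a log2 ratio of 0.32 with at least 500 reads. LDB3's segments and some further regions and genes were chosen after values were seen. Intervals came from SciPy 1.17.1 and tables from pandas 2.3.3 with NumPy 2.4.6, under Python 3.11.15, and plots from Matplotlib 3.10.9.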

Additional observations from a re-analysis of the deposited data

How the results depend on the processing

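No paired analysis was possible because each breed has 1 column of counts without replicate numbers, and for the same reason no replicate could be left out. Scaling by clean reads moved the number of genes past a log2 ratio of 0.32 toward Duroc from 1 to 4 of 10. The share of all genes past it moved from 7.41% to 28.1%. The median log2 ratio of the 10 genes moved from -0.11 to -0.32, and ACTN2 reversed to -0.10. The number of their 164 regions 2-fold or more higher in Duroc moved from 6 to 13. The share of all regions moved from 5.22% to 8.41%. The number of genes became 2 when ratios were centred on regions called in both breeds, beside 7.78% of all genes. It was also 2 of 10 with the median of region ratios and 2 of 8 without regions in another gene. In the gene body alone and without the region with the most reads it stayed at 1, which was LDB3 and not MYOZ3. The number of regions became 3 in the gene body alone and 1 among regions called in both breeds alone. For these settings other than the centring, the shares over all genes or regions are not given here. The last 2 kinds of exclusion, of regions in another gene and of regions called in 1 breed, were chosen after the data were seen. No region became 2-fold higher in Luchuan in any alternative. Over the 12 alternatives the log2 ratio stayed below 0 for MYOZ3 (-0.62 to -0.28), LDB3 (-0.52 to -0.19) and ACTN3 (-0.48 to -0.16). It also stayed below 0 for MYOT (-0.32 to -0.09), MYOZ1 (-0.23 to -0.0008) and, over 11 alternatives, TCAP (-0.34 to -0.06). ACTN2, MYOZ2, CSRP3 and PDLIM3 had values on both sides of 0. For LDB3 the value nearest to 0 came from regions called in both breeds alone. Body-only values were not possible for TCAP, and the exclusion of other genes left no region of MYOZ2 and PDLIM3. With 1 pool per breed, depth bounds counting error but not the spread between boars, and MYOZ2 and CSRP3 had the fewest reads.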
